A study of Mus musculus with 4 samples.

Results

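The protein keratins of the developing mouse molar were examined in single cells. Members were all genes whose symbol is Krt followed by a number and at most 1 letter, which gave 53 of the 32285 genes counted. The rule reads the symbol alone. The tissue came from wild-type mice, labelled WTB6 and given as C57BL/6J in the study's methods. Maxillary and mandibular molar tooth organs were taken at the embryonic stage E15.5 (written E15 in the sample titles) and postnatal day 1 (P1). The study's methods give the postnatal pups as P0/P1. For each library 6 tooth organs were pooled and captured with the 10x Chromium 3' chemistry. There was 1 library for each stage and jaw, 4 in all, with no treatment and no further genotype, and a pool carries no label of the animal. No replicate error within a stage and jaw can therefore be given, and no test was run. The intervals in brackets below are exact 95% intervals that cover counting error only.

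Barcodes with at least 1000 UMIs (unique molecular identifiers, 1 per captured RNA molecule) were kept. These were 10073 barcodes in E15.5 maxillary, 6911 in E15.5 mandibular and 17040 in P1 maxillary, with median depths of 9596, 11234 and 4019 UMIs. In P1 mandibular, 10120 barcodes were kept at a median of 10390 UMIs. The P1 libraries held 7131 barcodes in common, 38.1% of the maxillary and 36.8% of the mandibular barcodes, whereas any other pair of libraries had 28 to 70. In these common barcodes the maxillary UMI count was higher by a median of 2.07 on the log2 scale, with the 5th to 95th percentiles at 2.003 and 2.185. The common barcodes were kept in the maxillary library and dropped from the mandibular one. They had a median of 12089 UMIs there, against 2545 for the other maxillary barcodes, so the P1 maxillary levels of the enamel organ and the oral epithelium are also given without them, after the account of the types. Which of the pools a common barcode came from is not known.

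Cells were clustered within each library on genes other than keratins and named from markers that hold no keratin. Epithelium-like cells numbered 814 in E15.5 maxillary, 116 in E15.5 mandibular, 2773 in P1 maxillary (1441 of them common barcodes) and 1811 in P1 mandibular. The E15.5 mandibular epithelium was thin and uneven. A single cell there gave 25.9% of all keratin UMIs and the 10 richest cells gave 74.8%, whereas the 10 richest cells gave 12.8% to 19.6% in the other libraries. Of the 116 cells, Krt13 was seen in 22, Krt4 in 11 and Krt6b in 4, so levels of these genes in that library describe a few cells. Type names ending in -like were given where the markers of a type led and passed fixed limits. No margin to the next type was required where that was basal oral epithelium. In the order above, 372, 60, 1492 and 1211 epithelium-like cells stayed without a type.

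Keratins are the intermediate filament proteins of epithelial cells. A type I (acidic) keratin pairs with a type II (basic) keratin, and the paired chains build the filaments that desmosomes and hemidesmosomes anchor. Which pair a cell makes depends on its tissue and layer: Krt5 and Krt14 are known from the basal layer of stratified epithelia, Krt4 and Krt13 from the upper layers of the oral lining, Krt1 and Krt10 from cornifying layers, and Krt8 and Krt18 from simple epithelia. In the tooth, the enamel organ derives from oral epithelium and separates into the inner enamel epithelium, which becomes the enamel-forming ameloblasts, the stratum intermedium and stellate reticulum inside, and the outer enamel epithelium.

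The genes lie in 2 clusters. Of the 28 type I genes, 27 fell between positions 99232761 and 100269871 of chromosome 11 (GRCm38), and Krt18 lay apart on chromosome 15 at 102028180 to 102032027, beside the 25 type II genes at 101347444 to 102004482. Promoter sequence was matched in the RefSeq table (GRCm38.p6) for 36 of the 53 symbols, with 37 start sites. The TATA box letters TATAAA were on the gene's strand within 50 bases before the start in 15 of the 37 (40.5%), against 2.63% of all 32851 promoters. Over 250 bases before to 50 after the start, on either strand, 51.4% of keratin promoters held TATAAA against 13.6% of all. The AP-1 letters TGANTCA were in 5.41% against 7.81% and the AP-2 letters GCCNNNGGC in 18.9% against 16.6%, with no overlap possible between the 3 motifs. The 2 keratin start sites with TGANTCA were both of Krt13, and the Krt13 start not printed below had TGACTCA within its 60 bases. Printed here are 4 promoters, as the 60 bases before the start on the gene's strand, to show these letters and their absence in genes that the results below turn on. TATAAA is in capitals.
Krt10, chr11:99389365-99389424, minus strand: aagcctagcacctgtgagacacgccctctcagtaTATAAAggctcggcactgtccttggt
Krt27, chr11:99351119-99351178, minus strand: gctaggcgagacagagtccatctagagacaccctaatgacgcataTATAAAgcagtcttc
Krt13, chr11:100121567-100121626, minus strand: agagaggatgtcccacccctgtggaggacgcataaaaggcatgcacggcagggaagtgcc
Krt24, chr11:99285263-99285322, minus strand: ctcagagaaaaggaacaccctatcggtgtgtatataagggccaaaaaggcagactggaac
Of the keratins that reached 50 CPM in a type (below), Krt10 and Krt27 were the only ones among the 12 matched whose promoter held TATAAA in this 50-base window. The RefSeq starts of Krt14, Krt7 and Krt8 lie 1518, 1360 and 140 bases from the gene starts of the GENCODE annotation. The Krt13 start not printed lies 989 bases away. Absence of TATAAA before these starts therefore does not describe the annotated gene starts. The letters describe the sequence and no factor was measured.

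All 53 keratins had at least 1 UMI in some library, with 49, 43, 51 and 50 detected in E15.5 maxillary, E15.5 mandibular, P1 maxillary and P1 mandibular. Of 612219 keratin UMIs in all cells, Krt17 gave 127278, Krt14 119398, Krt5 108398, Krt13 89582 and Krt15 64036. Keratins made up 1.51% [1.51, 1.52] of all UMIs of epithelium-like cells in E15.5 maxillary and 1.41% [1.40, 1.43] in E15.5 mandibular. At P1 their share was 0.596% [0.593, 0.599] in maxillary and 0.618% [0.615, 0.622] in mandibular epithelium-like cells. Both E15.5 libraries were thus above both P1 libraries. With every cell weighing the same, the mean shares were 1.28%, 0.928%, 0.543% and 0.503% in the same order, and the median cells had 0.882%, 0.296%, 0.274% and 0.343%. By the median cell, E15.5 mandibular therefore lay between the P1 libraries. Without the common barcodes the P1 maxillary share was 0.530%.

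Outside the epithelium the share was far lower, at 0.0105%, 0.00391%, 0.00984% and 0.0125% in mesenchyme-like cells of the 4 libraries. By type, it was highest in suprabasal and cornified-like oral epithelium, with 3.05% of UMIs in 172 E15.5 maxillary cells, 4.18% in 103 P1 maxillary cells and 4.42% in 45 P1 mandibular cells. Basal-like oral epithelium (213 cells, named in E15.5 maxillary only) had 1.42%. The cells of the enamel organ had less. Stellate reticulum and stratum intermedium-like cells had 0.666% in P1 maxillary and 0.721% in P1 mandibular, outer enamel-like cells 0.448% (P1 mandibular), and ameloblast-like cells 0.395% and 0.322%. Dental epithelium-like cells, named from tooth-germ genes such as Shh, had the lowest share of the named types in each library, with 0.260% in E15.5 maxillary, 0.270% in E15.5 mandibular, 0.169% in P1 maxillary and 0.195% in P1 mandibular.

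**Figure D1:**
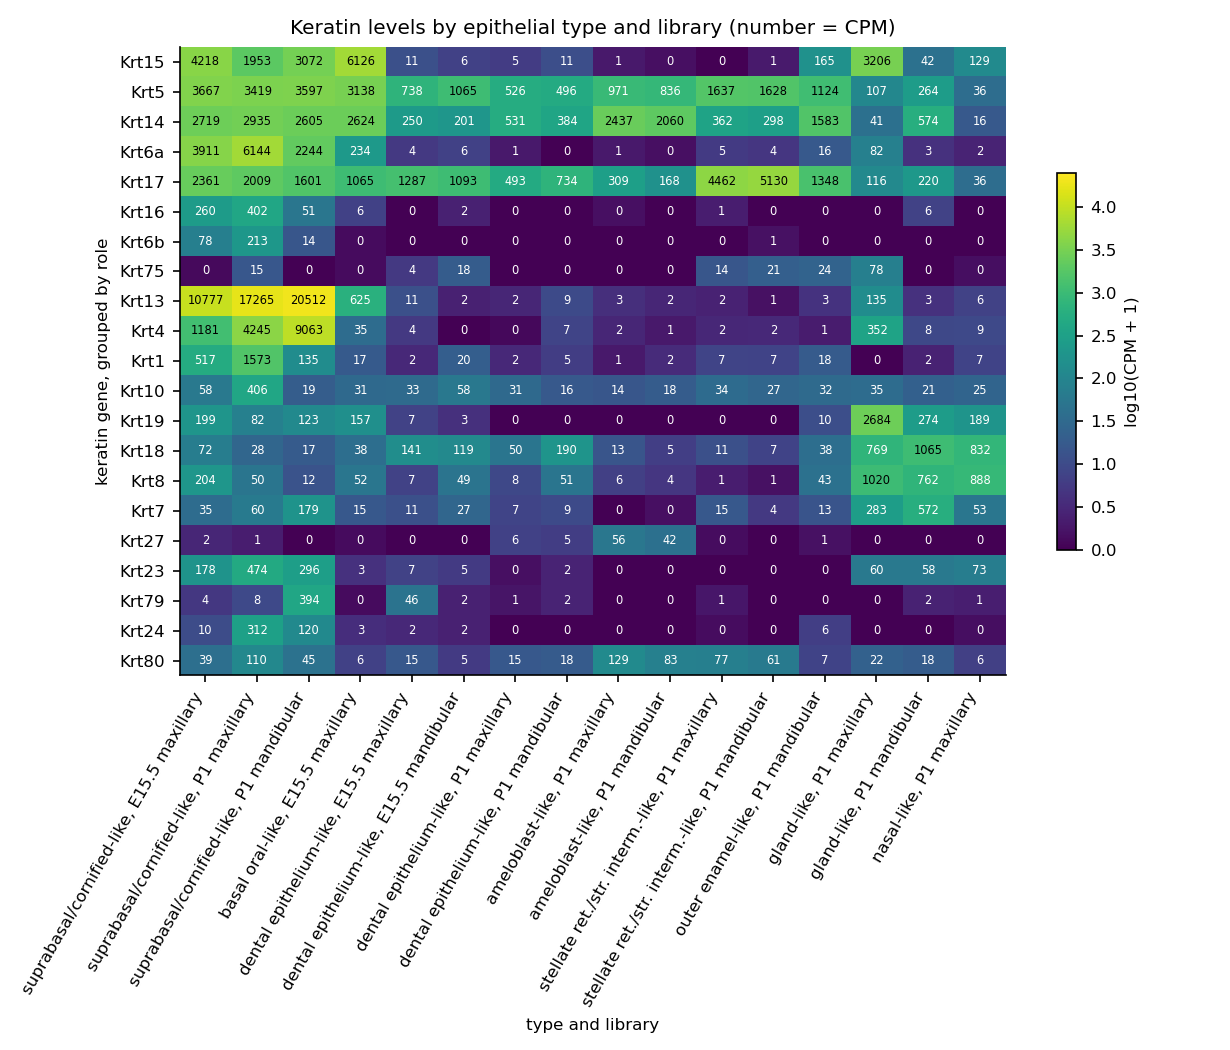
Level of each of the 21 keratins that reached 50 CPM (counts per 1000000 UMIs) in an epithelium-like type, by type and library. Rows are keratins ordered by role, columns are types, colour is log10(CPM + 1) and the printed numbers are CPM; Krt13 reaches 20512 in P1 mandibular suprabasal and cornified-like cells and Krt17 reaches 5130 in P1 mandibular stellate reticulum and stratum intermedium-like cells.

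Levels are given as CPM, the UMIs of a gene per 1000000 UMIs summed over the cells of a type. Counts of 3' ends do not grow with transcript length, and levels of different genes were compared as they stand. How well the end of each transcript is captured and assigned was not measured, so ratios between genes are ratios of counts. Keratin counted in cells that should hold none was taken as a floor to these levels. In P1 mandibular, 506 erythroid-like cells, which should hold no keratin, had 31.7 CPM [25.7, 38.8] of Krt17, 19.8 CPM [15.1, 25.5] of Krt14 and 16.2 CPM [12.0, 21.4] of Krt5, and a UMI of Krt14 was in 10.7% of them at a median depth of 6421.5 UMIs. A further erythroid-like cluster of 579 cells was left out of this floor, since its epithelial score of 0.512 was close to its erythroid score of 0.526 and Mindy4 and Dapl1 were among its leading genes. Its level of Krt17 was 782 CPM. In E15.5 maxillary the erythroid-like levels of Krt15, Krt17, Krt5 and Krt14 were 49.3, 47.9, 42.4 and 42.0 CPM over all 1432 cells. These levels were uneven too. The 848 cells of 2 clusters had 8.26, 6.73, 8.11 and 4.74 CPM, whereas a shallow cluster of 577 cells, with a median of 1953 UMIs, had 172, 204, 153 and 113 CPM. A last cluster of 7 cells had 139 of the 342 Krt14 UMIs. In P1 maxillary they were 6.00 CPM for Krt17 and 6.34 CPM for Krt14, but immune-like cells there held 90.6 CPM of Krt14. Glia-like cells of P1 mandibular, 99 in number, held 179 CPM of Krt17 and 116 CPM of Krt14. The floor thus differed from class to class, and how much of a level is free RNA was not tested.

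Of the 53 keratins, 21 reached 50 CPM in an epithelium-like type of at least 30 cells. All 3 basal keratins and all 5 keratins of injury and appendages were among them, as were 4 of 9 suprabasal, 4 of 5 simple epithelial, 1 of 7 inner root sheath and 4 of 9 other keratins. None of the 15 hard hair keratins was. Without the richest cell of each gene 19 of the 21 still reached 50 CPM, and Krt27 and Krt75 did not. The highest of the remaining 32 was the hair keratin Krt36, at 46.0 CPM in outer enamel-like cells of P1 mandibular, and 25 of the 32 stayed under 10 CPM in every type.

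The basal keratins Krt5, Krt14 and Krt15 divided the epithelia among them. Krt14, a type I partner of Krt5, had 2437 CPM [2370.1, 2506] in ameloblast-like cells of P1 maxillary and 2060 CPM [1998, 2124] in those of P1 mandibular. In stellate reticulum and stratum intermedium-like cells it had 362 and 298 CPM. Outer enamel-like cells had 1583 CPM of Krt14, and dental epithelium-like cells 250, 201, 531 and 384 CPM in E15.5 maxillary, E15.5 mandibular, P1 maxillary and P1 mandibular. Krt14 was thus high in ameloblast-like, outer enamel-like and oral cells and low in the inner layers of the enamel organ. Krt5, the type II partner, had 1124 CPM in outer enamel-like cells. Like Krt14 it was low in dental epithelium-like cells of P1 maxillary and P1 mandibular, at 526 and 496 CPM. Between ameloblast-like cells and stellate reticulum and stratum intermedium-like cells it ran the other way. It had 971 and 836 CPM in ameloblast-like cells and 1637 and 1628 CPM in stellate reticulum and stratum intermedium-like cells, so Krt5 was below Krt14 in the former and above it in the latter, with log2 ratios of Krt5 to Krt14 of -1.33 and -1.30 against 2.18 and 2.45. Krt15, a type I keratin of basal cells, was the leading keratin of basal-like oral epithelium, at 6126 CPM [6035, 6217]. It was also high in suprabasal and cornified-like cells, at 4218, 1953 and 3072 CPM in E15.5 maxillary, P1 maxillary and P1 mandibular, and had 3206 CPM in 63 gland-like cells of P1 maxillary. In ameloblast-like cells Krt15 had 0.984 and 0.498 CPM.

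Krt13, Krt4 and Krt1 were at their highest in suprabasal and cornified-like cells, which had been named from genes such as Krtdap and Sbsn and not from any keratin. Krt13, the type I keratin of the oral lining, had 10777 CPM in E15.5 maxillary, 17265 CPM [16983, 17551] in P1 maxillary and 20512 CPM [20163, 20865] in P1 mandibular, against 625 CPM in basal-like cells. The E15.5 maxillary cells of this type were 95 cells of a cluster led by Serpinb3a and Idi2, with 19035 CPM of Krt13, and 77 of a cluster led by cell cycle genes such as Kifc1 and Ube2c, with 1724 CPM. The cluster of 77 cells scored 0.568 for suprabasal and 0.493 for basal oral epithelium, so its markers set it little apart from basal-like cells. Krt4, the partner of Krt13, had 1181, 4245 and 9063 CPM in E15.5 maxillary, P1 maxillary and P1 mandibular. Krt4 was below Krt13 by 3.19, 2.02 and 1.18 on the log2 scale, so the pair was most nearly even in P1 mandibular. The cornification pair was far lower and uneven. Krt1 had 517, 1573 and 135 CPM and Krt10 had 58.2, 406 and 18.7 CPM. The last value was below the 24.5 CPM of mesenchyme-like cells, and dental epithelium-like cells of E15.5 mandibular had 57.7 CPM of Krt10. Of the Krt10 UMIs in P1 maxillary suprabasal and cornified-like cells, 47.9% came from 1 cell, and 45.4% of the Krt1 UMIs in E15.5 maxillary did.

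The keratins of injury and appendages include Krt17, which marks hair follicles and other ectodermal appendages, and Krt6a, Krt6b and Krt16, which are induced in wounds. Krt17 was the leading keratin of the inner enamel organ. It had 4462 CPM [4377, 4548] in stellate reticulum and stratum intermedium-like cells of P1 maxillary and 5130 CPM [5026, 5236] in those of P1 mandibular. Ameloblast-like cells had 309 and 168 CPM, of which the mandibular value was above the 31.7 CPM of erythroid-like cells and below the 179 CPM of glia-like cells. Outer enamel-like cells had 1348 CPM of Krt17, and dental epithelium-like cells had 1287, 1093, 493 and 734 CPM in E15.5 maxillary, E15.5 mandibular, P1 maxillary and P1 mandibular. Krt17 was also high in oral epithelium, at 1065 CPM in basal-like cells and at 2361, 2009 and 1601 CPM in suprabasal and cornified-like cells of E15.5 maxillary, P1 maxillary and P1 mandibular. The oral suprabasal levels thus lay above those of outer enamel-like and dental epithelium-like cells and below those of stellate reticulum and stratum intermedium-like cells. Its highest level was in an E15.5 maxillary cluster without a type name led by Grid1 and Gabra2, at 6777 CPM in 87 cells. Krt6a had 3911, 6144 and 2244 CPM in suprabasal and cornified-like cells of E15.5 maxillary, P1 maxillary and P1 mandibular, 234 CPM in basal-like cells, and at most 15.9 CPM in the named enamel-organ types. It exceeded its neighbour Krt6b by 5.65, 4.85 and 7.32 on the log2 scale, and the last 500 bases of the 2 transcripts share no 60-base stretch. Krt75, a companion keratin of the hair follicle, reached 78.5 CPM in gland-like cells of P1 maxillary, on 25 UMIs of which 11 came from 1 of the 63 cells, and 44.3 CPM without that cell.

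Krt27 and Krt80 were counted at low levels in ameloblast-like cells. Krt27, a type I keratin of the inner root sheath of hair, had 55.6 CPM [45.8, 66.8] in ameloblast-like cells of P1 maxillary and 41.9 CPM [33.4, 51.8] in those of P1 mandibular, against 0.420 and 0 CPM in stellate reticulum and stratum intermedium-like cells. The maxillary level was 49.2 CPM without the richest cell. The highest cluster for Krt27 was 1 without a type name in P1 mandibular, at 65.4 CPM. Of 60-base stretches in the last 500 bases, Krt27 shares 3.85% with Krt25. Krt80, a type II keratin found widely in epithelia, had 129 and 82.7 CPM in ameloblast-like cells and 77.2 and 60.6 CPM in stellate reticulum and stratum intermedium-like cells. Suprabasal and cornified-like cells had 110 and 45.2 CPM of Krt80, so it was not particular to ameloblast-like cells. An antisense gene overlaps Krt80 on the other strand.

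The simple epithelial keratins were highest in the gland-like and nasal-like clusters. Krt8 and Krt18, the pair of simple epithelia, had 888 and 832 CPM in 399 nasal-like cells of P1 maxillary. In gland-like cells Krt8 had 1020 and 762 CPM and Krt18 had 769 and 1065 CPM, in P1 maxillary and P1 mandibular. Krt19, a small type I keratin of ducts, had 2684 CPM in gland-like cells of P1 maxillary and 274 CPM in those of P1 mandibular. Krt7, a ductal type II keratin, had 283 and 572 CPM. In dental epithelium-like cells Krt18 was above Krt8. Krt18 had 141, 119, 50.2 and 190 CPM, and Krt8 had 6.51, 48.6, 7.91 and 51.0 CPM. The log2 ratios of Krt8 to Krt18 were -4.44 [-6.75, -2.83] on 3 Krt8 UMIs, -1.29, -2.67 and -1.90 there, against 0.09 in nasal-like cells. Krt18 thus exceeded Krt8 by 2.44-fold and 3.72-fold in the mandibular cells of E15.5 and P1. The 33 P1 maxillary cells that are not common barcodes had no Krt18 UMI. With the common barcodes kept in the mandibular library, the P1 mandibular levels were 89.7 CPM of Krt18 and 25.3 CPM of Krt8. With each cell thinned to 2000 UMIs, Krt8 had 25.9 CPM there.

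**Figure D2:**
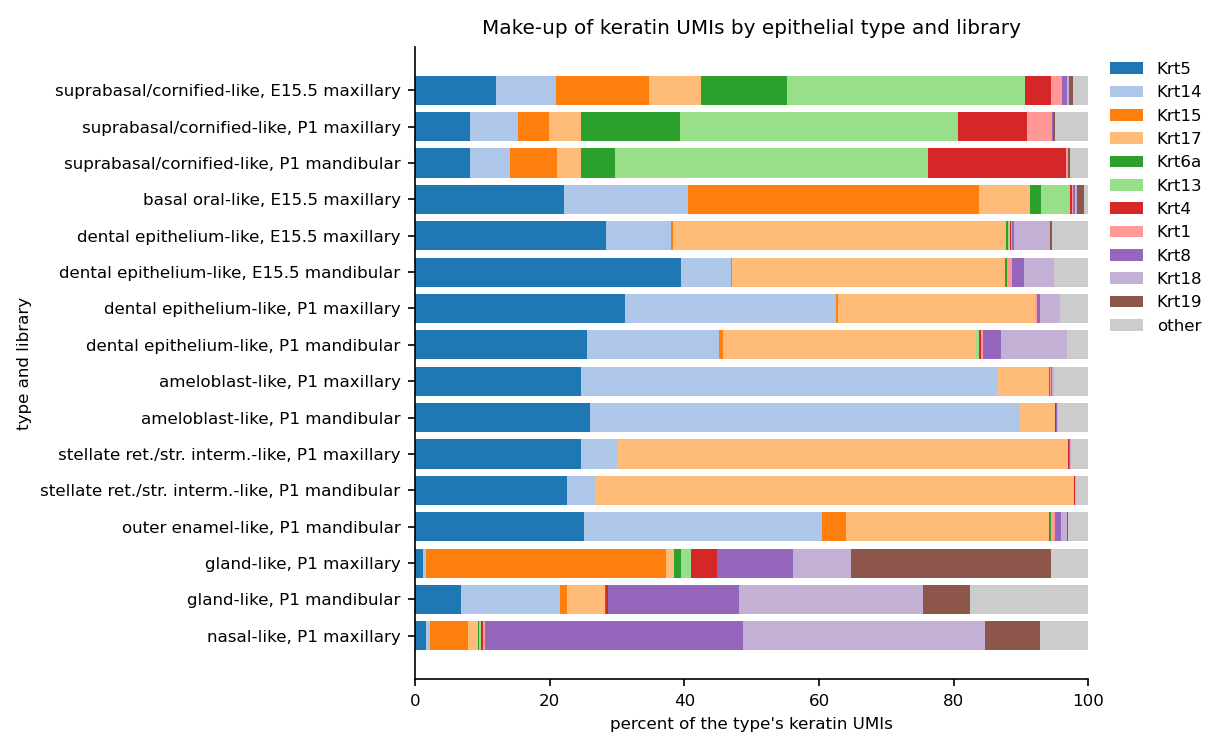
Share of each keratin in all keratin UMIs of an epithelium-like type, as stacked bars in percent, by type and library. Krt14 fills 61.8% and 63.9% of the ameloblast-like bars, Krt17 fills 66.9% and 71.1% of the stellate reticulum and stratum intermedium-like bars, and Krt13 leads all suprabasal and cornified-like bars.

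The make-up of the keratins differed from type to type. Krt14 gave 61.8% and 63.9% of keratin UMIs in ameloblast-like cells and Krt17 gave 66.9% and 71.1% in stellate reticulum and stratum intermedium-like cells, in P1 maxillary and P1 mandibular. Krt15 gave 43.2% in basal-like oral epithelium. Krt13 gave 35.3%, 41.3% and 46.4% in suprabasal and cornified-like cells of E15.5 maxillary, P1 maxillary and P1 mandibular. In outer enamel-like cells, Krt14, Krt17 and Krt5 gave 35.3%, 30.1% and 25.1%. The nasal-like cells had 38.3% Krt8 and 35.9% Krt18. Gland-like cells differed between the jaws, with Krt15 (35.6%) and Krt19 (29.8%) leading in P1 maxillary and Krt18 (27.3%) and Krt8 (19.5%) in P1 mandibular, but the 2 gland-like clusters were not each other's best match, so these are values of different cells. Of 15 keratins in them 6 were higher and 3 lower in the maxilla, where 15.7% of 10323 genes were higher and 19.8% lower.

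The leading keratin was also counted cell by cell. Among cells with at least 10 keratin UMIs, Krt14 was the highest keratin in 121 of 126 ameloblast-like cells of P1 maxillary (96.0% [91.0, 98.7]) and in 116 of 122 of P1 mandibular (95.1% [89.6, 98.2]). Krt17 was the highest in 131 of 144 stellate reticulum and stratum intermedium-like cells of P1 maxillary (91.0%) and in 94 of 104 of P1 mandibular (90.4%). Krt15 led 161 of 194 basal-like oral cells (83.0%). Suprabasal and cornified-like cells were more mixed, with Krt13 leading 82 of 161 in E15.5 maxillary, 63 of 102 in P1 maxillary and 33 of 45 in P1 mandibular. In outer enamel-like cells Krt14 led 68 of 121 and Krt17 36. In gland-like cells of P1 maxillary Krt15 led 31 of 60 and Krt19 20. In those of P1 mandibular Krt18 led 13 of 30, Krt14 led 9 and Krt8, the next after Krt18 by its share of UMIs, led 2. In dental epithelium-like cells Krt17 led 13 of 20 in E15.5 maxillary and 9 of 19 in E15.5 mandibular. In those of P1 mandibular it led 16 of 34, with Krt5 leading 6 and Krt14 5. Those of P1 maxillary were divided, with Krt14 leading 69, Krt17 59 and Krt5 58 of 203, and without the common barcodes Krt17 led 2 of 4.

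The P1 maxillary enamel-organ types consisted mostly of common barcodes, which made up 164 of 179 ameloblast-like, 185 of 219 stellate reticulum and stratum intermedium-like and 285 of 318 dental epithelium-like cells. The 34 other cells of the stellate reticulum and stratum intermedium-like type had a median of 1691.5 UMIs and 928 CPM of Krt17, against 4462 CPM in all 219. Krt17 still led their keratins, at 52.8%. The 15 other ameloblast-like cells had a median of 1392 UMIs and 20 keratin UMIs, of which 40% were Krt14. Their levels were 369 CPM [159, 726] of Krt14, 138 CPM of Krt5 and 230 CPM of Krt80, on 8, 3 and 5 UMIs, with no UMI of Krt27. In the 34 stellate reticulum and stratum intermedium-like cells Krt5 had 499.9 CPM, Krt14 171 CPM and Krt80 42.8 CPM, and the log2 ratio of Krt5 to Krt14 was 1.54. Their log2 ratio of Krt17 to Krt14 was 2.44 [1.54, 3.46], against 3.62 in all 219, and Krt17 was the highest keratin in 3 of the 4 cells with at least 10 keratin UMIs. In the 33 dental epithelium-like cells Krt17 had 552 CPM, Krt14 276 CPM and Krt5 265 CPM, so the log2 ratio of Krt17 to Krt14 was 1.0 [0.26, 1.77] on 48 and 24 UMIs, where it was -0.11 in all 318. The 60 suprabasal and cornified-like cells outside the common barcodes had 16471 CPM of Krt13, 6191 CPM of Krt6a, 3259 CPM of Krt4, 3093 CPM of Krt15, 1045 CPM of Krt1, 134 CPM of Krt10 and 60.7 CPM of Krt80. The levels of the enamel-organ types in P1 maxillary therefore rest on the common barcodes, and those of P1 mandibular do not use them.

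Type I UMIs exceeded type II UMIs in all 4 epithelia, with log2 ratios of type II to type I of -1.33, -1.14, -1.19 and -1.28 in E15.5 maxillary, E15.5 mandibular, P1 maxillary and P1 mandibular. Among the named types the ratio was lowest in gland-like cells of P1 maxillary, at -1.85, followed by stellate reticulum and stratum intermedium-like cells of P1 mandibular, at -1.66, and basal-like oral epithelium, at -1.61. It was nearest to even in E15.5 mandibular dental epithelium-like cells, at -0.32, and in nasal-like cells, at -0.38. The counts are of RNA, and proteins of the pairs were not measured.

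**Figure D3:**
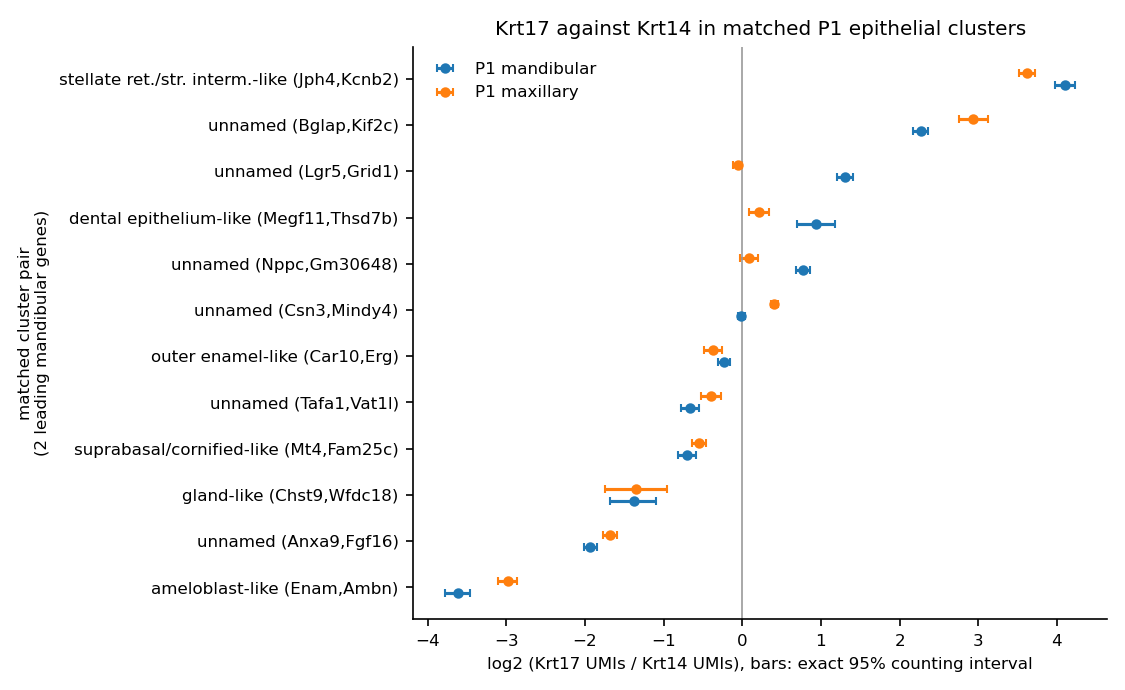
Log2 ratio of Krt17 to Krt14 UMIs in the 12 pairs of matched epithelial clusters of the P1 libraries, with exact 95% intervals. Each row is a pair labelled by its 2 leading mandibular genes and its mandibular name, with a point for each jaw; the rows run from ameloblast-like cells, at -2.98 and -3.62, to stellate reticulum and stratum intermedium-like cells, at 3.62 and 4.11.

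The balance of Krt17 and Krt14 was followed through all P1 epithelial clusters, named or not. Clusters of the jaws were matched on 2000 genes other than keratins, and 12 pairs of the 20 maxillary and 17 mandibular clusters were each other's best match. The log2 ratio of Krt17 to Krt14 ran from -2.98 [-3.10, -2.86] in P1 maxillary and -3.62 [-3.78, -3.46] in P1 mandibular, both in ameloblast-like cells, to 3.62 [3.52, 3.72] and 4.11 [3.98, 4.24] in stellate reticulum and stratum intermedium-like cells. The outer enamel-like cluster of P1 mandibular and its maxillary match lay near even, at -0.23 and -0.37. The cluster led by Odam and Mindy4, without a type name, was also near even, at 0.41 in P1 maxillary and -0.01 in P1 mandibular. Its keratin share of 0.722% and 0.937% was higher than that of the outer enamel-like pair. A cluster led by Gnrh1 and Calb1 in P1 maxillary and by Anxa9 and Fgf16 in P1 mandibular lay on the Krt14 side, at -1.68 and -1.93. Most cells of these maxillary clusters were common barcodes, such as 164 of 179, 124 of 137, 191 of 205 and 185 of 219 cells in the ameloblast-like, the Gnrh1, the Odam and Mindy4, and the stellate reticulum and stratum intermedium-like clusters. Since the origin of these barcodes is not known, the maxillary order is no independent repeat of the mandibular one. The other clusters had no reciprocal match and are not compared. The last 500 bases of Krt14 and Krt17 share 5.22% of their 60-base stretches, so a small part of either count could belong to the other gene.

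**Figure D4:**
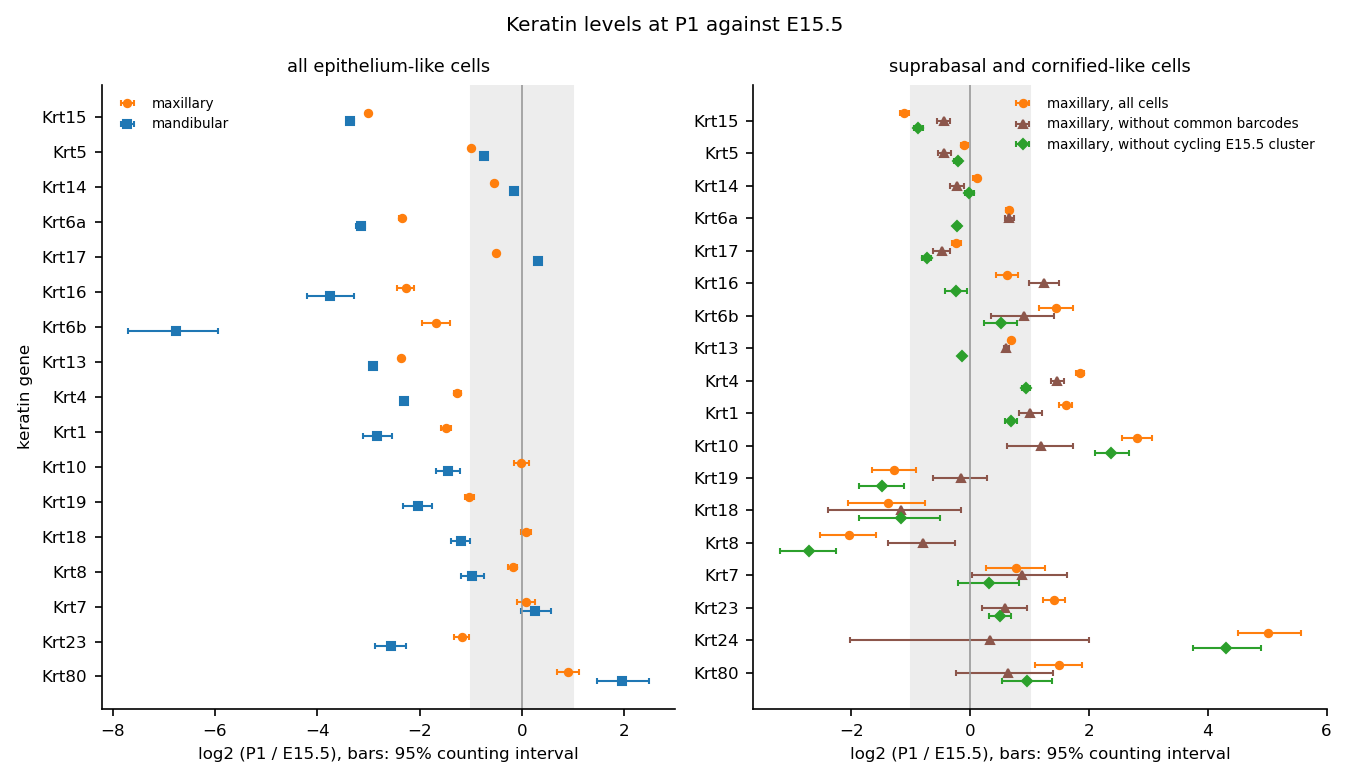
Log2 ratio of P1 to E15.5 levels of each keratin, with exact 95% intervals. The left panel shows all epithelium-like cells of each jaw and the right panel the suprabasal and cornified-like cells of the maxilla, with all cells, without the common barcodes and without the cycling E15.5 cluster; the grey band marks less than 2-fold, and Krt13, Krt15 and Krt6a lie far below it in both jaws at left while Krt4 and Krt1 lie above it at right with all cells and within it without the cycling cluster.

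Between stages, more keratins were lower at P1 than were higher in epithelium-like cells as a whole. A keratin was counted when its level differed more than 2-fold and was at least 10 CPM in the higher group. In the maxilla 10 of 19 keratins with enough counts were lower at P1 and 1 was higher, where 5.14% of all 10162 genes were lower and 9.26% higher. The median log2 ratio of the 19 was -1.03 against 0.06 for all genes. In the mandible 11 of 20 were lower and 3 higher, where 7.43% of 10015 genes were lower and 8.34% higher, and the median was -1.32 against -0.0041. Lower in both jaws were Krt1, Krt4, Krt6a, Krt6b, Krt13, Krt15, Krt16, Krt19 and Krt23. The maxillary calls of Krt19 and Krt23 rest on the common barcodes. Without them the log2 ratios were 1.05 for Krt19, which was then past 2-fold higher, and 0.0089 for Krt23. With each cell thinned to 2000 UMIs the maxillary ratio of Krt19 was 0.13. Single cells carried other calls. Leaving out the richest E15.5 cell, the maxillary ratios of Krt1, Krt4 and Krt19 were -0.72, -0.72 and -0.97, inside 2-fold, but with the richest cell of each stage left out they were -1.03, -1.09 and -1.001. In the mandible Krt23 went from -2.56 to -0.53 and Krt18 from -1.20 to -0.90 without the richest E15.5 cell. That choice left 7 of 18 keratins lower in the maxilla and 9 of 19 in the mandible, where 4.55% and 5.02% of genes were.

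Krt15, the basal oral keratin, had 2941 CPM in E15.5 maxillary and 363 CPM in P1 maxillary, a log2 ratio of -3.02 [-3.05, -2.99], and 1626 and 159 CPM in the mandible, a log2 ratio of -3.35 [-3.42, -3.29]. Krt13 had 3346 and 646 CPM in the maxilla (log2 ratio -2.37) and 4318 and 573 CPM in the mandible (-2.91). Krt6a had 1228 and 240 CPM in the maxilla (-2.35) and 741 and 83.3 CPM in the mandible (-3.15). Both E15.5 libraries were above both P1 libraries for these 3 genes. Krt16, a type I partner of the Krt6 proteins, had 80.6 and 16.7 CPM (-2.27) and 40.2 and 3.0 CPM (-3.74). Krt1 had 169 and 60.6 CPM (-1.48) and 73.1 and 10.3 CPM (-2.83). In E15.5 mandibular, the richest cell gave 57.6% of the Krt16, 47.6% of the Krt6a and 43.3% of the Krt1 UMIs. The mandibular calls of these genes were kept without it. In the mandible Krt6b had 60.5 and 0.557 CPM (-6.76), where the E15.5 level came from 4 cells.

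Over all epithelium-like cells, Krt14, Krt5 and Krt17 differed less than 2-fold in both jaws. Krt14 had 1921 and 1309 CPM in the maxilla (log2 ratio -0.55) and 1899 and 1701 CPM in the mandible (-0.16). Krt5 had 2288 and 1145 CPM (-0.998, just inside 2-fold) and 2135 and 1280 CPM (-0.74). Krt17 was lower at P1 in the maxilla, at 2130 and 1501 CPM (-0.51 [-0.53, -0.48]), and higher in the mandible, at 1450 and 1799 CPM (0.31 [0.26, 0.36]). These Krt17 results depended on the cells and depth used, with values given in the closing section. Without the common barcodes its maxillary ratio was past 2-fold downward. With each cell thinned its mandibular ratio turned negative. Over all epithelium-like cells, past 2-fold upward were Krt24 in the maxilla (1.10), and Krt27 (3.11), Krt80 (1.95) and Krt79 (1.52) in the mandible. The calls of Krt24 and Krt79 came from few cells, since 33.5% of the 334 P1 maxillary UMIs of Krt24 and 49.5% of the 299 P1 mandibular UMIs of Krt79 came from 1 cell. Without that cell they had 9.01 and 6.48 CPM, under the 10 CPM limit, which left none of 18 keratins higher in the maxilla and 2 of 19 in the mandible, where 8.93% and 8.22% of genes were. Krt24 was also not counted in 3 other choices of cells given in the closing section. Krt27 went from 1.15 to 9.12 CPM in the maxilla, a log2 ratio of 2.99 that the 10 CPM limit left uncounted. Krt79, a type II keratin of follicle openings singled out after its values were seen, had 35.3 CPM in E15.5 maxillary and 0.891 CPM in P1 maxillary, but 50.7% of the former came from 1 cell.

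The stage difference moved with the mix of epithelia. Suprabasal and cornified-like cells made up 172 of 814 epithelium-like cells in E15.5 maxillary and 26 of 116 in E15.5 mandibular, but 103 of 2773 and 45 of 1811 at P1. Without them the keratin shares were 0.865%, 0.377%, 0.472% and 0.511% in E15.5 maxillary, E15.5 mandibular, P1 maxillary and P1 mandibular, so the mandibular order was turned. In the maxilla 5 of 16 keratins were then lower at P1 and 1 higher, where 4.85% and 8.51% of genes were, and in the mandible 3 of 14 were lower and 4 higher, where 8.37% and 7.33% of genes were. The mandibular log2 ratio of Krt13 was 0.69. Ameloblast-like cells were named at P1 only, so types present at a single stage could not be compared across stages.

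Partner genes of the keratin filament were read from fixed lists, over all epithelium-like cells. The mix of types in these cells differed between the stages (above), and values without the suprabasal and cornified clusters are not given. Grhl3, Col17a1, Itga6 and Itgb4 were also among the markers used to name cells. Counts of the lists stand beside the 5.14% of all genes that were lower at P1 in the maxilla and the 7.43% in the mandible. Of 9 desmosome genes with enough counts in the maxilla and 10 in the mandible, 3 were lower at P1 in each. The desmosomal cadherin Dsg3, the cadherin of pemphigus, was lower in both (log2 ratios -2.15 and -1.71), as was Jup, which encodes plakoglobin (-1.38 and -1.09). The remaining call was the plakophilin Pkp1 in the maxilla (-1.21) and Pkp2 in the mandible (-2.53), which are named here after their values were seen. None of the 6 hemidesmosome genes was lower in either jaw, and their median was 0.22 in both. Dst, the hemidesmosomal plakin and a marker used to name basal cells, was higher in the mandible (1.44), where 8.34% of genes were, and was likewise singled out. Of the cornified envelope and plakin genes 3 of 6 were lower in the maxilla and 3 of 5 in the mandible. They were Krtdap (-2.80 and -3.66) and Sbsn (-2.003 and -3.04), both used to name suprabasal cells, and Tgm1, which cross-links the envelope (-1.34 and -1.72). Of 8 epithelial transcription factors 4 were lower in the maxilla and 3 in the mandible, with Tfap2c (-2.58 and -2.73), Grhl3 (-2.16 and -2.40) and Ovol1 (-1.03 and -1.51) in both. Of the 3 other intermediate filament genes with enough counts 1, the lamin gene Lmna, was lower in the maxilla (-1.47) and none in the mandible.

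Within suprabasal and cornified-like cells of the maxilla, the stage comparison turned on the cycling cluster, which made up 77 of the 172 E15.5 cells. The 103 P1 cells formed 1 cluster, and cycling cells within it were not counted. With the cycling E15.5 cluster, 12 of 23 keratins were higher at P1 and 4 lower, where 4.48% of 9220 genes were higher and 12.4% lower. Against the other 95 E15.5 cells, 5 of 23 were higher and 3 lower, where 4.80% and 5.98% of 8876 genes were, and the median log2 ratio of the 23 was 0.35 in place of 1.13. Without the common barcodes, which left 60 P1 cells, 8 of 23 were higher and 1 lower, where 7.41% and 13.5% of genes were. Without the richest cell of the higher stage, but with all clusters, 8 of 20 were higher and 4 lower, where 2.13% and 11.2% of genes were. With neither the cycling cluster nor the common barcodes 4 of 23 were higher and 1 lower, where 9.88% and 9.06% of genes were. Krt4 had 1181 CPM in all E15.5 cells of the type and 4245 CPM in P1 (log2 ratio 1.85 [1.78, 1.91]). Its ratio was 1.46 without the common barcodes, 0.94 without the cycling cluster, at 2208 CPM in E15.5, and 0.56 without both. Krt1 had 517 and 1573 CPM (1.61), with 1.02 without the common barcodes, 0.69 without the cycling cluster and 0.10 without both. Krt10 had 58.2 and 406 CPM (2.80), with 1.20, 2.38 and 0.77 in the same order. None of the 3 was past 2-fold without both. Krt13 and Krt6a, with log2 ratios of 0.68 and 0.65 over all cells, were at -0.14 and -0.22 without the cycling cluster, which turned their direction. In the same type Krt15, at 4218 and 1953 CPM, was lower (-1.11, -0.45 without the common barcodes and -0.87 without the cycling cluster). Krt8 was lower as well, at 204 and 49.6 CPM (-2.04, with -0.80 and -2.72). Without both it was at -1.47 and the only keratin past 2-fold downward. Krt24, a type I keratin known from cornifying epithelia, had 9.66 and 312 CPM (5.01), but 43.4% of its P1 UMIs came from 1 cell and the log2 ratio was 0.33 without the common barcodes. With all E15.5 cells of the type and every cell weighing the same, the ratios were 1.05 for Krt4, 1.27 for Krt1, 2.82 for Krt10 and 3.68 for Krt24.

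In dental epithelium-like cells the balance of Krt14 and Krt17 differed between the stages, but the cells so named may differ as well. The E15.5 maxillary cluster was led by Vwde and Shh, and another cluster there with dental markers stayed without a type. The P1 maxillary cluster not led by cell cycle genes was led by Tcerg1l and B530045E10Rik. A change with stage and a different set of cells cannot be told apart. Of 10 keratins in the maxilla 1 was higher at P1 and 5 lower, where 11.8% of 10221 genes were higher and 15.7% lower. Of 11 in the mandible 1 was higher and 5 lower, where 14.6% of 10627 genes were higher and 17.2% lower. Krt14 had 250 and 531 CPM in the maxilla (log2 ratio 1.09 [0.82, 1.37]) and 201 and 384 CPM in the mandible (0.94). Krt17 had 1287 and 493 CPM (-1.38) and 1093 and 734 CPM (-0.57), and Krt5 had 738 and 526 CPM (-0.49) and 1065 and 496 CPM (-1.10). The maxillary direction of Krt5 was not stable. With each cell thinned to 2000 UMIs its E15.5 level was 427 CPM, below the P1 level thinned likewise. With every cell weighing the same its log2 ratio was 0.03, and that of Krt17 was -0.91, inside 2-fold. Without the common barcodes the P1 maxillary level of Krt5 was 265 CPM. The P1 mandibular levels stand over 116 CPM of Krt14 and 179 CPM of Krt17 in glia-like cells and 19.8 and 31.7 CPM in erythroid-like cells, and the part of free RNA in them was not tested. The P1 maxillary cells were 2 clusters, of which 1, with 122 cells, was led by cell cycle genes. Without it the maxillary log2 ratios were 0.94 for Krt14, which ended the call, and -1.22 for Krt17, and none of 11 keratins was higher and 3 were lower, where 10.0% and 13.6% of 10206 genes were. In P1 maxillary, the 33 cells that are not common barcodes had 276 CPM of Krt14, less than 2-fold from the 250 CPM of E15.5 maxillary. E15.5 mandibular had 30 cells of this type.

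Between the jaws at E15.5, 4 of 18 keratins were higher in maxillary than in mandibular epithelium-like cells and 2 lower, where 2.09% of 9764 genes were higher and 3.0% lower. Krt79 (log2 ratio 2.98), Krt19 (1.26), Krt1 (1.21) and Krt16 (1.003) were higher. Krt4 (-1.79) and Krt6b (-1.38) were lower, and both had most of their mandibular UMIs in a few cells, since 41.9% of Krt4 came from 1 cell. On the maxillary side 50.7% of the Krt79 and 41.1% of the Krt1 UMIs came from 1 cell. Without the richest cell of the higher jaw 2 of 18 were higher and 1 lower, where 1.83% and 1.59% of genes were, and Krt1 (0.45), Krt16 (0.84) and Krt6b (-0.05) were inside 2-fold. Leaving out the richest cell of each jaw, 8 were higher and 1 lower, where 3.0% and 1.88% of genes were, with Krt1 at 1.21. Without the suprabasal and cornified clusters the ratio of Krt4 turned to 2.73, and 8 of 17 keratins were higher and 1 lower, where 4.86% and 5.88% of 10015 genes were. The E15.5 jaw calls of Krt1, Krt6b and Krt16 thus changed with single cells, and that of Krt4 with the clusters used. At P1, 9 of 20 were higher in the maxilla and 2 lower, where 3.85% of 9890 genes were higher and 1.03% lower. These were Krt1 (2.56), Krt16 (2.48), Krt19 (2.27), Krt8 (1.67), Krt6a (1.53), Krt23 (1.47), Krt24 (1.43), Krt18 (1.25) and Krt15 (1.19), with Krt79 (-3.85) and Krt27 (-1.20) lower. Krt24 (0.85, at 9.01 CPM) and Krt79 (-2.86, at 6.48 CPM) were no longer counted without their richest cell. Without the common barcodes 8 were higher and 6 lower, where 16.4% and 8.36% of genes were. Nasal-like cells were named in P1 maxillary only. Without nasal-like and gland-like clusters 7 of 20 keratins were higher and 2 lower, where 1.17% and 1.02% of 9592 genes were. Krt8 and Krt18 were then inside 2-fold and no longer counted.

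**Figure D5:**
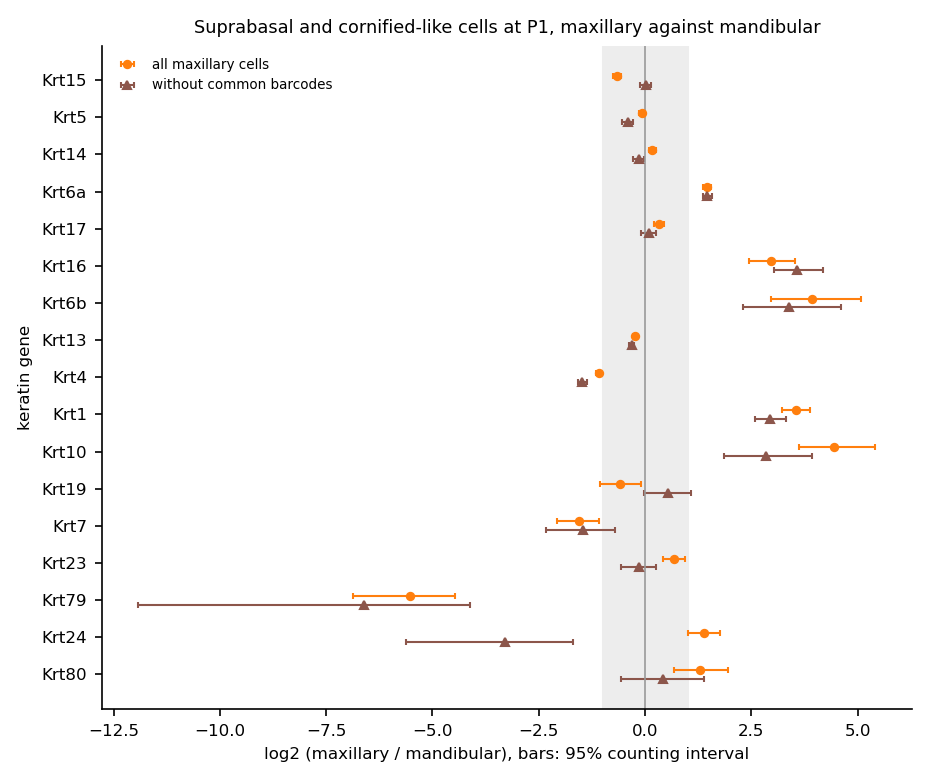
Log2 ratio of P1 maxillary to P1 mandibular levels of keratins in suprabasal and cornified-like cells, with exact 95% intervals, for all cells and without the common barcodes. Krt10, Krt6b, Krt1 and Krt16 lie above 2-fold both ways and Krt79 and Krt4 below; Krt24 is at 1.38 with all cells and at -3.30 without the common barcodes.

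The jaws also differed within suprabasal and cornified-like cells at P1. Of 25 keratins 10 were higher in the maxilla and 4 lower, where 7.81% of 8935 genes were higher and 7.11% lower. Without the common barcodes 9 were higher and 5 lower, where 13.2% and 11.1% of genes were. Without the richest cell of the higher jaw 9 of 21 were higher and 1 lower, where 4.15% and 2.78% of genes were, and Krt24, Krt33b, Krt7, Krt75 and Krt4 were no longer counted. With the richest cell of each jaw left out, 11 were higher and 3 lower, where 9.04% and 5.64% of genes were. On the maxillary side were Krt1, Krt10, Krt16, Krt6a and Krt6b. Krt1 had 1573 CPM in the maxilla and 135 CPM in the mandible (log2 ratio 3.54 [3.22, 3.87]), and 2.95 without the common barcodes. Of the 87 mandibular UMIs 46.0% came from 1 cell. Krt10 had 406 and 18.7 CPM (4.44, and 2.84 without), Krt16 402 and 51.4 CPM (2.97, and 3.58 without), and Krt6a 6144 and 2244 CPM (1.45, and 1.46 without). Krt6b had 213 and 14.0 CPM (3.93, and 3.38 without), of which 56.3% of the maxillary UMIs came from 1 cell. On the mandibular side was Krt4, with 4245 and 9063 CPM (-1.09, and -1.48 without, but -0.77 with every cell weighing the same). Krt79 had 8.47 and 394 CPM (-5.54), but its mandibular UMIs came from 6 of 45 cells, 58.5% of them from 1. Krt24 changed sides, with 1.38 over all cells and -3.30 without the common barcodes. With the common barcodes kept in the mandibular library in place of the maxillary one, Krt1 had 1045 CPM in 60 maxillary and 362 CPM in 73 mandibular cells (1.53 [1.28, 1.78]). Krt10 was then at 0.66, inside 2-fold, while Krt16 (2.33), Krt6b (1.29), Krt6a (1.09), Krt4 (-1.33) and Krt79 (-6.34) stayed past it and Krt24 was at -3.74. Without the richest mandibular cell Krt4 was at -0.81, which ended its call. With the richest cell of each jaw left out it stayed past 2-fold, at 3395 CPM in the maxilla and 7436 CPM in the mandible. Krt13 differed less than 2-fold, at -0.25, as did Krt17, at 2009 and 1601 CPM. Suprabasal cells of palate, gum and cheek are not told apart by the markers used, so a different mix of oral sites and a difference between jaws cannot be told apart.

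The enamel-organ types were compared between the jaws as well, on the maxillary side mostly through common barcodes. In ameloblast-like cells 1 of 7 keratins was higher in the maxilla and none lower, where 4.09% of 8386 genes were higher and 2.60% lower. In stellate reticulum and stratum intermedium-like cells 2 of 10 were higher and none lower, where 6.36% of 9525 genes were higher and 1.26% lower, and Krt17 had a log2 ratio of -0.20, but of -2.47 in the 34 cells that are not common barcodes. In those 34 cells 4 of 9 keratins were higher and 2 lower, where 29.5% and 12.5% of 10250 genes were. In dental epithelium-like cells none of 8 was higher and 3 were lower, where 11.2% and 16.0% of 10154 genes were. The 3 were Krt8 (-2.69), Krt18 (-1.92) and Krt15 (-1.09). The maxillary type held 2 clusters and the mandibular type 1, and the best match of the cycling maxillary cluster was a mandibular cluster of 170 cells without a type name. Without the cycling cluster none of 8 was higher and 2 were lower, Krt8 (-1.98) and Krt18 (-1.38), where 7.52% and 11.3% of 10059 genes were. Without the common barcodes 1 of 11 was higher and 2 were lower, where 15.9% and 11.5% of 11001 genes were.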

How the data were processed

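Per the labels, 10x Chromium 3' libraries were processed by the authors with Cell Ranger 7.0.1 on mm10, and UMI counts per gene and barcode were deposited, with no normalization. Read depth and library totals before cell calling were not used here. The deposited counts were read as they stand. Barcodes under 1000 UMIs were dropped, as were P1 mandibular barcodes also in P1 maxillary.

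Clusters were made per library with scanpy 1.11.5 (2000 variable genes without keratins, 40 components, 15 neighbours, Leiden resolution 1) and epithelial clusters were divided again (20 components). Names came from marker lists without keratins. The naming rule was the third version, set after clusters and their keratin totals had been seen, and epithelial subclusters with markers of other classes (189, 12, 347 and 113 cells in E15.5 maxillary, E15.5 mandibular, P1 maxillary and P1 mandibular) were left out. Doublets were scored with Scrublet at 0.8% per 1000 barcodes, and the top-scoring barcodes were left out only in an alternative. Members, lists and comparisons were chosen with earlier results of these data known.

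UMIs were summed over the cells of a class and given per 1000000 (CPM). Levels have exact Poisson, ratios exact binomial and shares Clopper-Pearson 95% intervals (scipy 1.17.1). A group at 0 was set to 3 counts where a ratio was formed. With 1 library per stage and jaw, no test was run and a difference was counted past 2-fold with at least 10 CPM in the higher group. Keratins were named where they reached 50 CPM in a type of at least 30 cells, and for differences the 5 largest each way at 50 CPM or more in the higher group. Where a few cells hold most UMIs of a gene, these intervals are too narrow. The method was tested on simulated data. Leaving out clusters led by cell cycle genes, the erythroid-like cluster near epithelium and the richest cell of each gene was chosen after seeing the data. Alternatives were applied by leaving out or adding cells, without clustering again. Genes that overlap a keratin lie on the other strand.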

Additional observations from a re-analysis of the deposited data

Results flagged for a closer look

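Krt17 had opposite signs in the jaws in the comparison of P1 with E15.5 over all epithelium-like cells. The log2 ratio was -0.51 in the maxilla and 0.31 in the mandible, and with 1 library per group the difference between the jaws was not tested. With each cell thinned to 2000 UMIs, both ratios were below 0, at -0.87 in the maxilla and -0.10 in the mandible. Without the barcodes common to both P1 libraries, the maxillary ratio was -2.26. Stellate reticulum and stratum intermedium-like cells, where Krt17 is highest at P1, had no counterpart named at E15.5.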

How the results depend on the processing

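Each stage and jaw has 1 library, and no paired analysis was run. A fit of stage with jaw as a block over the 4 libraries was possible but was not run. Keratin shares are listed for E15.5 maxillary, E15.5 mandibular, P1 maxillary and P1 mandibular in this order. Without the top-scoring Scrublet barcodes they were 1.54%, 1.43%, 0.619% and 0.625%. Without barcodes of high mitochondrial share they were 1.58%, 1.45% and, in P1 mandibular, 0.649%, and no keratin was higher at P1 in the maxilla (0). With at least 2000 UMIs per barcode the P1 mandibular share was 0.623%. With cells named by their own markers the shares were 1.66%, 1.33%, 0.634% and 0.615%, with 0 higher at P1 in the maxilla and 1 lower in maxillary than mandibular at E15.5. With each cell thinned to 2000 UMIs they were 1.28%, 0.998%, 0.524% and 0.537%, with 3 higher at P1 in the maxilla, 1 lower in maxillary than mandibular at E15.5, and Krt19 at 0.13 in the maxilla. With the mixed subclusters put back they were 1.39%, 1.32%, 0.550% and 0.593%, with 0 higher at P1 in the maxilla. Without nasal-like and gland-like clusters the P1 shares were 0.629% and 0.625%, with 3 higher at P1 in the maxilla.

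With the common barcodes out of both P1 libraries, the P1 maxillary share was 0.530%, 3 keratins were higher at P1 in the maxilla and 6 lower in maxillary than mandibular at P1. The maxillary stage ratios of Krt23 and Krt19 turned to 0.0089 and 1.05, and the jaw ratio of Krt24 within suprabasal and cornified-like cells to -3.30. With them kept in the mandibular library in place of the maxillary one, the shares were 0.530% and 0.614%, with the same counts of 3 and 6 the same ratios of Krt23 (0.0089) and Krt19 (1.05), and the jaw ratio of Krt24 within suprabasal and cornified-like cells at -3.74. Without suprabasal and cornified clusters, 5 keratins were lower at P1 in the maxilla and 3 in the mandible, 8 were higher and 1 lower in maxillary than mandibular at E15.5, and 1 was lower at P1. Krt13 and Krt6a turned to 0.69 and 0.048 in the mandibular stage comparison, and Krt4 to 2.73 in the E15.5 jaw comparison.

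At 3-fold in place of 2-fold, 0 were higher and 6 lower at P1 in the maxilla, 1 higher and 1 lower in maxillary than mandibular at E15.5, and 4 higher and 1 lower at P1. With a minimum of 50 CPM, 0 were higher at P1 in the maxilla and 1 in the mandible, and 0 were lower in maxillary than mandibular at P1. Without the richest cell of the higher group, 0 were higher at P1 in the maxilla, 2 higher and 1 lower in maxillary than mandibular at E15.5, and 1 lower at P1. Without the richest cell of each group these counts were 0, 8, 1 and 1. The cause of these shifts was not tested. A ratio was counted as reversed only if it had been past 2-fold, so sign changes of smaller ratios are not in these counts. Of 539 ratios of single keratins over all epithelium-like cells under the alternatives other than the richest cells, 8 were reversed and 266 more left their counting interval. Of 92 ratios 51 left it without the richest cell of the higher group and 44 without that of each group, and no called ratio was reversed (0). Of 751 levels in types 50 moved over 1.5 times. Of 71 ratios within types with every cell weighing the same, 39 left it and no called ratio was reversed (0). Without the common barcodes 35 of 43 ratios within types left it and 1 more was reversed. With these barcodes kept in the mandibular library, 14 of 17 jaw ratios within suprabasal and cornified-like cells left it and 1 more was reversed. Of 27 ratios within suprabasal and cornified-like and dental epithelium-like cells, 19 left their counting interval without the cluster of cycling cells, and no called ratio changed sign. Levels of P1 maxillary enamel-organ types are limited by the 15 to 34 cells left without common barcodes, and E15.5 mandibular by its 116 epithelium-like cells.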

Other observations

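Some keratins were counted outside the epithelium. Krt10 had 26.8 CPM [25.5, 28.1], 22.0 CPM [20.4, 23.7], 26.1 CPM [25.0, 27.2] and 24.5 CPM [23.3, 25.7] in mesenchyme-like cells of E15.5 maxillary, E15.5 mandibular, P1 maxillary and P1 mandibular. These levels were close to each other in all 4 libraries, and erythroid-like cells had 5.53, 0.821, 0.667 and, without a cluster that also scored as epithelium, 1.32 CPM. Muscle-like cells had 24.4 to 27.9 CPM of Krt10 and immune-like cells 6.74 to 8.35 CPM. The antisense gene Gm11940 overlaps Krt10 on the other strand.

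Krt222, a keratin-like gene of the type I cluster, had 0.815 CPM in mesenchyme-like cells of E15.5 maxillary, 0.520 CPM in E15.5 mandibular, 7.64 CPM in P1 maxillary and 9.05 CPM in P1 mandibular. Its level was therefore higher at P1 in both jaws, but stayed under the 10 CPM limit for counting a difference. Krt8 and Krt18 had 141 and 69.9 CPM in neuron-like cells of P1 maxillary, against 5.37 and 8.35 CPM in immune-like cells of that library. In P1 epithelium the hair keratin Krt36, singled out after its values were seen, had 46.0 CPM in outer enamel-like cells of the mandible and 69.4 CPM in the matched maxillary cluster led by Adamts3.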
